A study of Homo sapiens with 2 samples.

Results

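The genes described here are 60 listed genes whose symbols mark them as HNRNP, SRSF, SF3A, SF3B, SNRP or U2AF genes, chosen by name alone from 23365 listed genes. They were counted in A673 cells, an established Ewing sarcoma line, in poly(A) RNA-seq with 1 library per group. Both groups had been transduced with lentivirus made in HEK 293T cells, collected after 72 hours and applied with 6 µg/mL polybrene. Selection was with 0.4 µg/mL puromycin for 6 days. One group carried the shRNA sh813 against RUNX3, a Runt-domain transcription factor, and the other a non-target shRNA. The titles call each library a pool, so neither is a single clone by its label. The question was how the transcriptome of the cells with the RUNX3 hairpin differed from that of the control cells.

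For both libraries the title names one hairpin and the shRNA characteristic the other. Here they go by their titles, as the 813-titled library and the NT-titled library, and every direction below would turn round if the characteristics were right. RUNX3, the gene the hairpin targets, had 387 read pairs (15.8 CPM, pairs per 1000000 of the scaled library) in the 813-titled library and 1391 pairs (59.9 CPM) in the NT-titled library. This is 3.78-fold lower in the 813-titled library, with a log2 fold of -1.92 (95% interval -2.09 to -1.76), and it goes with the titles. The libraries held 23342660 and 24326135 pairs counted in genes. All 15 Ewing sarcoma markers examined were above 1 CPM, CD99 among them at 4026 and 3808 CPM, while CD3D, CD3E and TEK, markers of T cells and endothelium, had 0 pairs in both. Of 7 leukocyte markers 4 were measured and the list summed to 103 and 143 CPM, mostly CD79A (90.0 and 129 CPM). Of 6 endothelial markers 3 were measured and the list summed to 8.54 and 10.9 CPM, with KDR at 52 and 5 pairs. Of 8 fibroblast markers 6 were measured, and the 8 summed to 3526 CPM in the 813-titled library and 2876 in the NT-titled library. Of 5 epithelial markers 2 were measured and the list summed to 674 and 635 CPM, mostly KRT18 (625 and 563 CPM). Of 6 HEK293 markers 3 were measured and the list summed to 8.75 and 12.7 CPM. By the 2-fold rule given below, JAKMIP2 (log2 fold 1.55) was called higher and NKX2-2 (-1.43) and NR0B1 (-1.11) lower among the Ewing markers. This is 20% of the 15, against 11.6% over all measured genes. KDR was also called higher and GATA3, of the HEK293 list, lower. The part of these marker genes in the results below was not tested. With 1 library per group no difference was tested. Intervals are exact 95% binomial intervals of the counts and cover counting error alone: PCR copies of a molecule are counted as if independent, and the spread between cultures was not measured.

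Splicing removes introns from pre-mRNA in the spliceosome, which is built from small nuclear ribonucleoproteins (snRNPs). In the snRNPs a ring of Sm proteins, encoded by SNRP genes, surrounds a small nuclear RNA, and further proteins are particular to the U1 or U2 particle. The U1 snRNP pairs with the 5′ splice site, the U2AF dimer binds the polypyrimidine tract and the AG of the 3′ splice site, and the SF3A and SF3B complexes join the U2 snRNP to the branch point. SR proteins, encoded by SRSF genes, bind exonic enhancers and mostly favour inclusion of the exon. The hnRNP proteins coat nascent RNA and often oppose inclusion. Many SR and hnRNP genes limit their own amount through a "poison" exon, whose inclusion brings in an early stop codon and sends the transcript to nonsense-mediated decay. EWSR1, which gives the 5′ part of the Ewing sarcoma fusion gene, itself encodes an RNA-binding protein that interacts with splicing factors.

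No splicing factor passed the rule of size in either direction. Of the 60 genes, 52 were measured, meaning that either library held them at 1 CPM or more. A gene was called higher or lower at a difference of 2-fold or more whose interval lay wholly beyond 1.5-fold. By this rule 0 of the 52 were higher and 0 were lower in the 813-titled library, where the background over 12254 measured genes was 8.13% higher and 3.48% lower, 11.6% in all. Genes with mean CPM like that of the splicing factors (50.3 to 253, their quartiles) also had fewer calls than all genes, with 4.96% of 2964 called. The median log2 fold of the 52 was -0.10, the middle 50% ran from -0.33 to 0.17, and the extremes were -0.58 for SF3B5 and 0.76 for SRSF1. Over all measured genes the median was 0.01 and the middle 50% ran from -0.32 to 0.48. A log2 fold within 0.5 of 0 was found for 41 of the 52 (78.8%), for 61.0% of all measured genes and for 76.0% of the genes of like mean CPM.

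Within this narrow range the genes differed by role. All 11 Sm, U1 and U2 snRNP genes measured had log2 folds below 0, with intervals wholly below 0 in 10 of them and a median of -0.32. Of the 9 SF3A and SF3B genes, 7 lay below 0 with intervals clear of 0, and the median was -0.33. The 12 SR genes had a median of 0.10 with 7 above 0 (10 with plain totals of pairs), and the 18 hnRNP genes a median of 0.03 with 10 above 0 (13 with plain totals). Genes of like mean CPM had a median of -0.15, with 32.2% above 0. Of these 2964 genes, 1734 had intervals wholly below 0 and 774 wholly above 0. Over all 12254 measured genes the intervals lay wholly below 0 in 4249 and wholly above 0 in 4217. Signs this close to 0 depend on the scaling: without the TMM factors, with the plain total of pairs as the library size, every log2 fold moved up by 0.14 and 2 of the 11 snRNP genes lay above 0 instead of 0. The order of the roles in the main scaling is shown in the plot of folds by role.

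**Figure D1:**
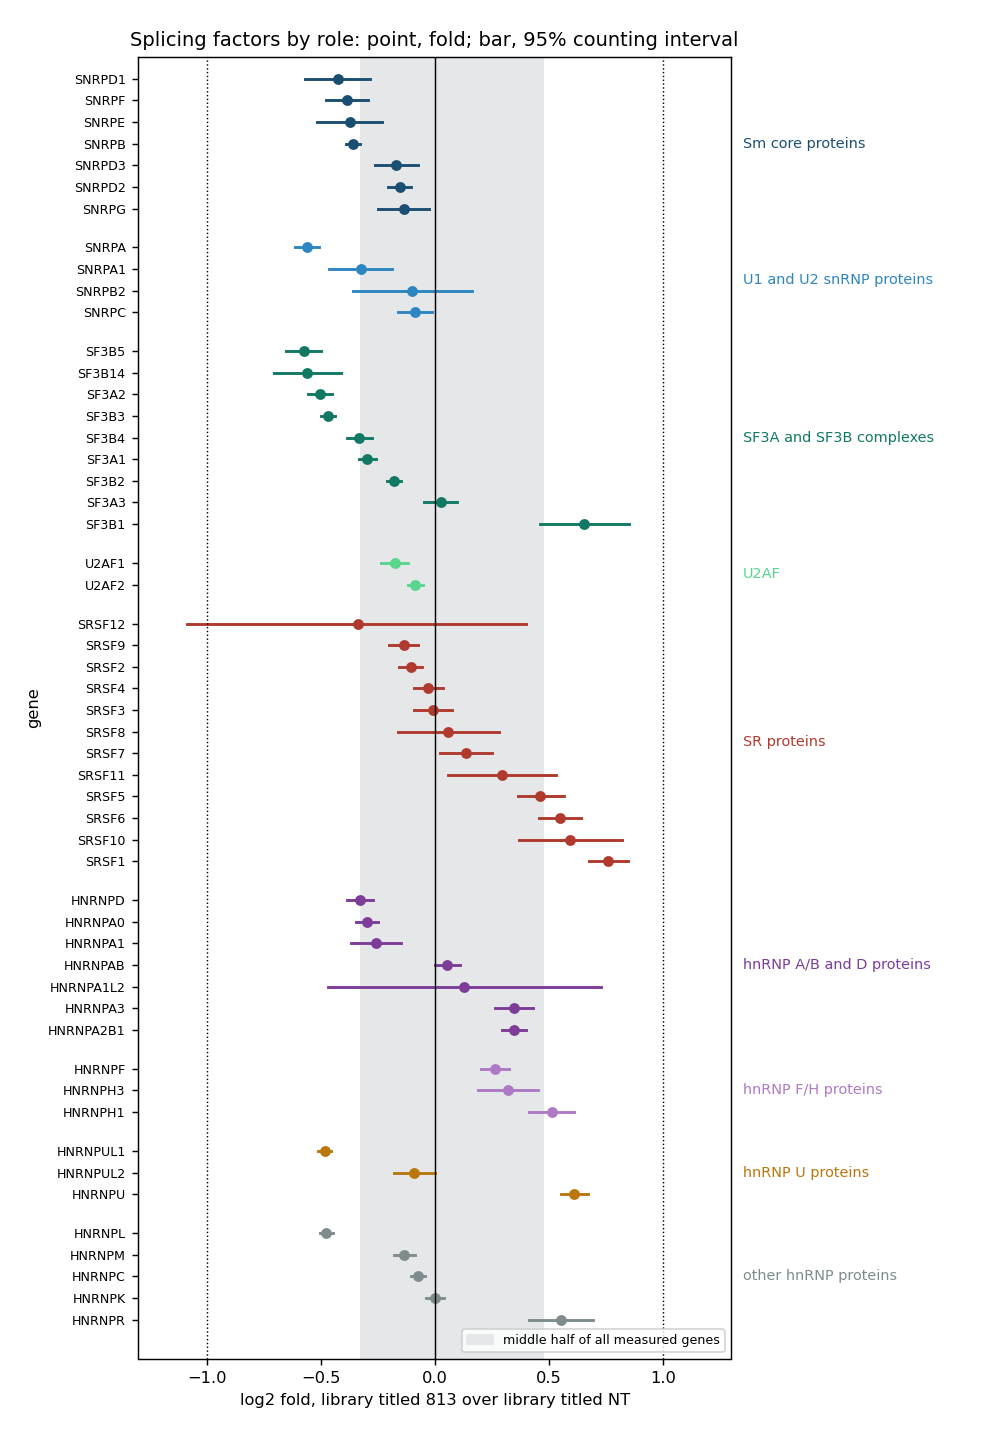
Log2 fold (horizontal axis, 813-titled over NT-titled library) of each of the 52 measured splicing factors (vertical axis), grouped and coloured by role; points are folds, bars exact 95% intervals for counting error, the grey band the middle 50% of all 12254 measured genes, and dotted lines a 2-fold difference. All 11 Sm, U1 and U2 snRNP genes lie left of 0 (with plain totals of pairs 2 of them would not), all 3 measured hnRNP F/H genes lie right of it, and no point reaches a dotted line.

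Levels per exonic length spanned more than 3 orders of magnitude and kept nearly the same order in both libraries. The values are the authors' RPKM (reads per kilobase of exonic length, scaled to their total of reads), the one scale here that takes length into account between genes. RPKM is not corrected for GC content, with which it varied over all genes (given below). It rests on gene counts, which are uncertain for members that share bases with other listed genes, HNRNPA1 among them (given below). The place of such members in the order is uncertain too. SNRPB, which encodes the Sm proteins B and B′, was the most abundant, at 490 RPKM in the 813-titled library and 574 in the NT-titled library. HNRNPL, a binder of CA-rich RNA, came next with 262 and 333 RPKM, and SNRPD2, another Sm protein, had 217 and 221. SF3B2, a subunit that contacts RNA near the branch point, had 191 and 197 RPKM, and HNRNPC, which binds runs of U, had 177 and 170. The library titled 813 was thus the lower one for SNRPB and HNRNPL, while SNRPD2, SF3B2 and HNRNPC were nearly level on this scale.

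The next 5 genes by mean RPKM were both U2AF subunits, HNRNPUL1, SF3B5 and SF3A2. U2AF2, the large subunit that binds the polypyrimidine tract, had 168 and 163 RPKM. U2AF1, the small subunit that reads the AG, had 145 and 150. HNRNPUL1, a relative of the matrix-binding hnRNP U, had 129 RPKM in the 813-titled library and 164 in the NT-titled library. SF3B5 and SF3A2, subunits of the branch-point complexes, had 101 and 137 RPKM and 102 and 132 RPKM. Close below them, SNRPA had 98.7 and 133 RPKM, HNRNPK, a poly(C) binder, had 120 and 110, and SRSF9 had 114 and 115. At the lower end SF3B1 had 4.29 and 2.49 RPKM, SRSF10 2.82 and 1.71, and SRSF12 0.274 and 0.317. SF3B1 thus had the lowest RPKM of the SF3 genes, whereas its partners in the same complex, SF3B2 and SF3B5 among them, had much higher values. GC content was 41.0% for SF3B1, 55.1% for SF3B2 and 56.6% for SF3B5. SF3B14, at 42.5%, had 28.1 and 37.8 RPKM. The part of GC content in these gaps was not tested.

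**Figure D2:**
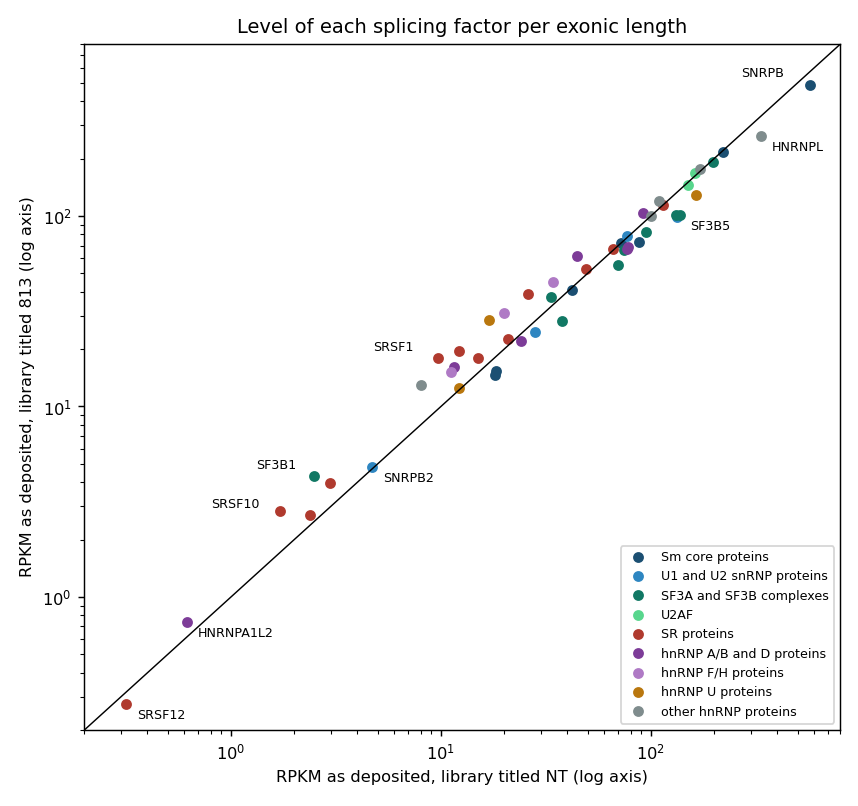
RPKM as deposited of each of the 52 measured splicing factors in the NT-titled library (horizontal log axis) and the 813-titled library (vertical log axis), coloured by role; the line marks equal values. SNRPB lies at the top (574 and 490 RPKM), SRSF12 at the bottom (0.317 and 0.274), and SRSF1, SF3B1 and SRSF10 lie above the line.

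The Sm core genes had 7 of 7 log2 folds below 0, with a median of -0.36. SNRPD1 had 716 pairs in the 813-titled library and 912 in the NT-titled library, 29.3 and 39.3 CPM, a log2 fold of -0.42 (-0.57 to -0.28). SNRPF had 1769 and 2191 pairs, for a log2 fold of -0.38 (-0.48 to -0.29), and SNRPE had 726 and 892 pairs and -0.37 (-0.52 to -0.23). SNRPB, with by far the most pairs of the ring, had 17183 and 20902, a log2 fold of -0.36 (-0.39 to -0.33). SNRPD3, SNRPD2 and SNRPG lay nearer to 0, at -0.17, -0.15 and -0.14, each with an interval that ended below 0. The folds of the ring's members spanned 0.29 on the log2 scale in the main scaling. They lay further apart with the trend on GC content and length described below removed, from -0.57 for SNRPD1 to 0.14 for SNRPD2.

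Among the U1 and U2 proteins, SNRPA stood lowest. SNRPA encodes the A protein of the U1 snRNP, and it had 4890 pairs (200 CPM) in the 813-titled library and 6838 pairs (295 CPM) in the NT-titled library, a log2 fold of -0.56 (-0.61 to -0.51). SNRPA1, which encodes the A′ protein of the U2 snRNP, had 794 and 943 pairs, for a log2 fold of -0.32 (-0.46 to -0.19). SNRPC, the C protein of the U1 snRNP, had 2925 and 2946 pairs and -0.09 (-0.16 to -0.01). SNRPB2, the partner of the A′ protein, had 245 and 249 pairs and -0.10, and its interval of -0.36 to 0.16 includes 0.

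The SF3A and SF3B genes held both the lowest fold and one of the highest. SF3B5, a small scaffold subunit of SF3B, had 2258 pairs (92.3 CPM) in the 813-titled library and 3193 pairs (138 CPM) in the NT-titled library, a log2 fold of -0.58 (-0.65 to -0.50). SF3B14, the subunit that touches the branch-point adenosine (now SF3B6), had 658 and 920 pairs and -0.56 (-0.71 to -0.41). SF3A2 had 5111 and 6877 pairs and -0.50 (-0.56 to -0.45). SF3B3, the large beta-propeller scaffold, had 16324 and 21438 pairs and -0.47 (-0.50 to -0.44). These 4 subunits had fewer pairs in the 813-titled library than in the NT-titled library before scaling too, as did SF3B4, SF3A1 and SF3B2. The 813-titled library also held fewer pairs in total, 23342660 against 24326135.

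SF3B4, SF3A1 and SF3B2 had log2 folds of -0.33, -0.29 and -0.18, and SF3A3 was at 0.03 with an interval of -0.05 to 0.10. SF3B1, the heat-repeat subunit that clamps the branch helix and is recurrently mutated in several cancers, went the other way. It had 581 pairs (23.8 CPM) in the 813-titled library and 350 pairs (15.1 CPM) in the NT-titled library, a log2 fold of 0.65 (0.46 to 0.85). The folds of the 9 SF3 genes thus spanned 1.23 on the log2 scale. U2AF1 had 4496 and 4818 pairs, for a log2 fold of -0.18 (-0.23 to -0.12), and U2AF2 had 15998 and 16101 pairs and -0.08 (-0.12 to -0.05). The direction of U2AF2 turned with the scaling, as did that of the pair's median, which was 0.0050 with the plain total of pairs.

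SRSF1 had the largest fold of the 52 genes. It encodes the classical SR protein SF2/ASF, a known proto-oncogene, and had 3081 pairs (126 CPM) in the 813-titled library and 1724 pairs (74.3 CPM) in the NT-titled library. Its log2 fold was 0.76 (0.68 to 0.85), 1.70-fold. SRSF10, which acts as a general repressor when dephosphorylated, had 428 and 269 pairs and 0.59 (0.37 to 0.82). SRSF6 had 2380 and 1544 pairs, for a log2 fold of 0.55 (0.46 to 0.64), and SRSF5 had 1965 and 1352 pairs and 0.46 (0.36 to 0.57). SRSF11 and SRSF7 followed at 0.29 (0.06 to 0.53) and 0.14 (0.02 to 0.25), so 6 of the 12 SR genes had intervals wholly above 0. So did 4217 of all 12254 measured genes and 774 of the 2964 genes of like mean CPM.

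The other SR genes were close to level. SRSF3, which promotes export as well as splicing, had 2490 and 2376 pairs, for a log2 fold of -0.01 (-0.09 to 0.07). SRSF2, recurrently mutated in myeloid cancers, had 6064 and 6190 pairs and -0.11 (-0.16 to -0.05). SRSF9 had 4037 and 4212 pairs and -0.14 (-0.20 to -0.07), and SRSF4 and SRSF8 had intervals that include 0. SRSF12 had only 30 and 36 pairs, and its log2 fold of -0.33 has an interval of -1.09 to 0.40, so a difference of this size was not detectable at this depth. Part of the exonic length of SRSF9 (42.6%) overlaps GATC, 16.3% of SRSF5 overlaps a listed locus, and 10.4% of SRSF2 overlaps MFSD11 and MIR636. Without a stated strand setting, reads there cannot be assigned to 1 of the genes with certainty.

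The hnRNP genes lay on both sides of 0. All 3 measured F/H genes, whose proteins bind runs of G, lay above 0. HNRNPH1 had 2131 pairs in the 813-titled library and 1417 in the NT-titled library, a log2 fold of 0.51 (0.42 to 0.61). HNRNPH3 had 1116 and 848 pairs and 0.32 (0.19 to 0.45), and HNRNPF had 4613 and 3645 pairs and 0.26 (0.20 to 0.33). Each of the 3 also had more pairs in the 813-titled library before scaling. In the A/B and D family the folds lay on both sides of 0. HNRNPA2B1 and HNRNPA3 were both at 0.35, with 6953 against 5183 and 2831 against 2112 pairs. HNRNPD, the AU-rich-element binder AUF1, was at -0.33 (-0.39 to -0.27) with 4615 and 5499 pairs, and HNRNPA0 at -0.30 (-0.35 to -0.25) with 6228 and 7262.

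In the U family HNRNPU and HNRNPUL1 lay at opposite ends. HNRNPU, the scaffold attachment factor A that holds RNA to chromatin, had 5919 pairs (242 CPM) in the 813-titled library and 3674 pairs (158 CPM) in the NT-titled library, a log2 fold of 0.61 (0.55 to 0.67). HNRNPUL1 had 16822 and 22296 pairs and -0.48 (-0.51 to -0.45). HNRNPUL2 was at -0.09 with an interval of -0.18 to 0.0015. Of the other hnRNP genes, HNRNPR, a relative of the synaptic RNA binder SYNCRIP, had 1079 and 698 pairs and 0.55 (0.41 to 0.69). HNRNPL had 17226 and 22723 pairs and -0.48 (-0.50 to -0.45). HNRNPK, HNRNPC and HNRNPM, 3 abundant genes, had log2 folds of 0.0020, -0.07 and -0.13.

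With the rule loosened to 1.5-fold and an interval wholly beyond 1.2-fold, 4 of the 52 genes were higher and 0 were lower in the 813-titled library. The 4 were SRSF1, SF3B1, HNRNPU and SRSF10. They are 7.69% of the measured splicing factors, where the background by the same rule was 17.5% higher and 9.85% lower, 27.3% in all. Among genes of like mean CPM it was 7.29% higher and 10.6% lower, 17.9% in all.

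The 2 libraries differed along GC content and gene length, and the log2 folds of the splicing factors also varied with both. Across 11832 measured genes with a GC value, a smooth trend on GC content and exonic length accounted for 16.3% of the variance in log2 folds, and GC content alone for 14.2%. The 8 splicing factors with log2 folds above 0.4 had a median GC content of 41.1%, and the 15 below -0.3 one of 48.5%. Across the 52 genes, which share the same 2 libraries, the log2 fold had a Pearson correlation of -0.43 with GC content (Spearman -0.42), and log2 mean RPKM one of 0.59 (Spearman 0.66). With log2 exonic length the log2 fold had a correlation of 0.46 (Spearman 0.50). These correlations are descriptions over genes, which are not independent replicates. The GC-rich splicing factors thus also had the higher RPKM. Their median mean RPKM was 88.2 in the 27 genes at 45% GC or more and 16.5 in the other 25. All measured genes with a GC value split the same way, with medians of 9.97 at 45% GC or more and 1.197 below it. The split was thus not particular to splicing factors. Whether it reflects mRNA abundance was not tested, as RPKM is not corrected for GC content. All genes at 45% GC or more had a median log2 fold of -0.11 and the others one of 0.33. The 27 splicing factors at 45% GC or more had a median of -0.15, and the other 25 one of 0.0020, well under that 0.33. What lies behind the trend was not tested.

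With the trend removed, the separation of the roles shrank. The Sm median went from -0.36 to -0.06, the U1 and U2 median from -0.21 to -0.11 and the SF3 median from -0.33 to -0.11. The SR median stayed near its value, at 0.07 against 0.10, while that of the A/B and D hnRNP genes went from 0.06 to -0.15. The A/B and D median was also below 0 with exon sums (-0.28) and with genes at 5 CPM or more (-0.10). In all, 12 of the 52 genes changed sign and 21 lay above 0 in place of 19. The fold of SRSF1 dropped to 0.34, that of SF3B1 to 0.28 and that of HNRNPU to 0.13. Those of SRSF10 (0.59), HNRNPR (0.75), HNRNPH1 (0.61) and SRSF5 (0.48) stayed within 0.01 of their values or grew. SF3B3 became the lowest at -0.79, with SF3B14 at -0.74 and HNRNPD at -0.61, while SNRPB (0.01) and SF3A2 (-0.02) came to lie at 0. The 3 F/H genes kept folds above 0, with a median of 0.15.

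**Figure D3:**
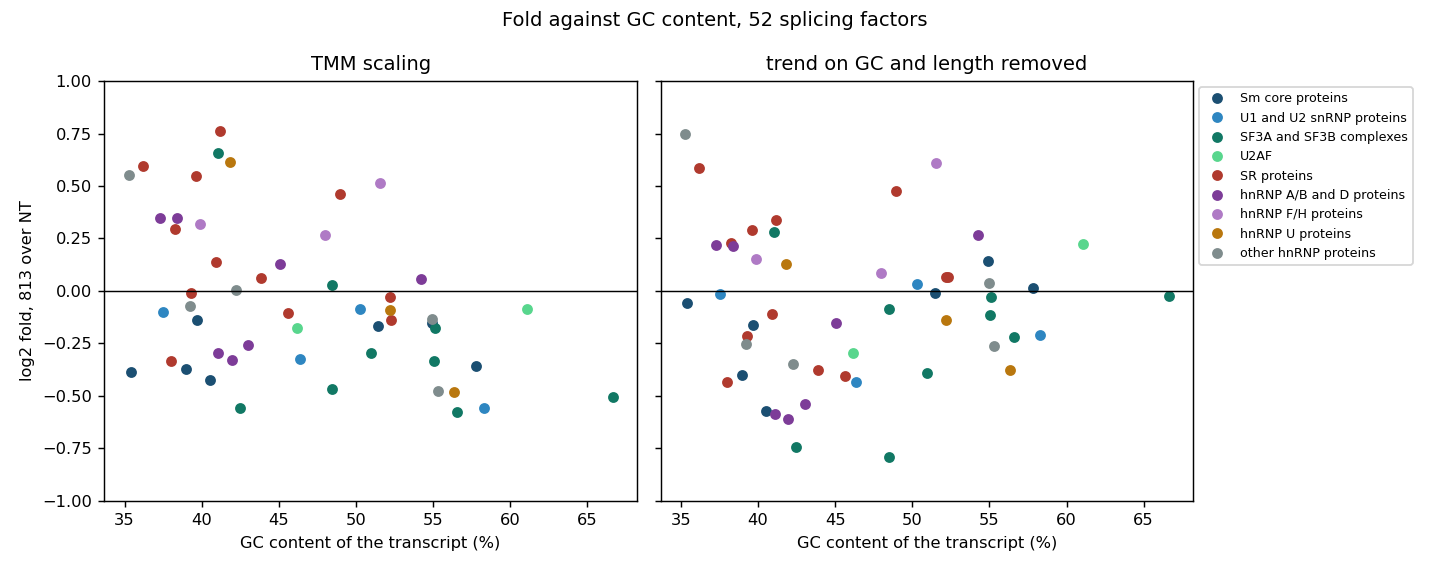
Log2 fold (vertical axis, 813-titled over NT-titled library) of the 52 measured splicing factors against the GC content of the transcript in percent (horizontal axis), coloured by role, with TMM scaling (left) and after a trend on GC content and length over all genes was removed (right). On the left most genes above 0.5 lie under 45% GC; on the right HNRNPR, HNRNPH1 and SRSF10 are highest (0.75, 0.61 and 0.59) and SF3B3 is lowest (-0.79).

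The exon tables gave a second readout that the choice by name did not use, namely whether the parts of each gene moved together. Of 555 exon records in these genes, 525 in 52 genes had enough reads, at least 50 over both libraries in a gene with at least 200. An exon departed when its ratio between the libraries differed 2-fold or more from that of the rest of its gene and their intervals did not overlap. This held for 1 of the 525 records (0.190%), against 0.423% of 92860 records over all genes. At a 1.5-fold difference it was again 1 record, against 0.897%. With exon reads as deposited, not divided by 2, 5 records departed, in SF3B1, SRSF10 and SRSF11, against 0.932% of the 92860 records over all genes. The log2 fold of an exon differed from that of the rest of its gene by a median of 0.08, and by less than 0.2 in 453 records (86.3%). Over all genes the median was 0.13 and 65.5% lay within 0.2. No background of like read depth was taken for exons, so the part of depth in these contrasts was not tested.

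The departing record is a 171-base exon of SF3B1 at chr2:198281465-198281635 (hg19, minus strand), shown because it is the exon of these genes whose ratio left that of its gene by this rule. It had 45 reads in the 813-titled library and 56 in the NT-titled library, where the gene as a whole had more in the 813-titled library. Its own log2 fold was -0.38, with an interval of -1.26 to 0.46 that includes 0, and the rest of SF3B1 was at 0.68 (0.50 to 0.86). Its sequence in the matching transcript, 5′ to 3′, is all in lower case since no part was singled out.
SF3B1 exon: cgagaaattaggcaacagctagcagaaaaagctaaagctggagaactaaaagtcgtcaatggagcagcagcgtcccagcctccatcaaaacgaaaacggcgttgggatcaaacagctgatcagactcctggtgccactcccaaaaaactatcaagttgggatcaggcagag
The reads of this exon are few, and the records next to it, with 32 and 29 reads on one side and 68 and 40 on the other, did not depart.

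Poison exons and other alternative exons had nearly the same share of reads in both libraries. The exons were examined because their use is known to set the amount or form of these proteins. A share is the reads in the exon over those in the exon and its constitutive neighbours, or in 1 form over both forms, with a Clopper-Pearson interval. Reads were not divided by 2 for this interval, so both reads of a pair count as independent and it is narrower for that. A read counts for each exon it touches, so shares can be compared between libraries and not read as inclusion. The first 2 sequences are the poison exons of SRSF3 (chr6:36567598-36568053, record of 456 bases, first 61 shown) and SRSF6 (chr20:42087793-42088060, record of 268 bases, first 179 shown), both on the plus strand, with the stop codon in capitals.
SRSF3 poison exon: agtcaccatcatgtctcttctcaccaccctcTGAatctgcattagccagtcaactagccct
SRSF6 poison exon: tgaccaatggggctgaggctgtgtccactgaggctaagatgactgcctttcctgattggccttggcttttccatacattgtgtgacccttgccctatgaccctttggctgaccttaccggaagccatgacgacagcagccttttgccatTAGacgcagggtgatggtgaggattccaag
The SRSF3 poison exon had 244 of 1263 reads (19.3%, 17.2 to 21.6) in the 813-titled library and 217 of 1256 (17.3%, 15.2 to 19.5) in the NT-titled library. Its reads per kilobase were 9.14% and 7.97% of those of its neighbours. The SRSF6 poison exon had 176 reads against 709 in its neighbours (19.9%, 17.3 to 22.7) and 144 against 558 (20.5%, 17.6 to 23.7). SRSF6 itself had a log2 fold of 0.55, and its poison exon and the neighbours both had more reads in the 813-titled library.

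The alternative exons of the hnRNP genes are short, and 3 of them are shown because their inclusion sets the protein isoform. They are exon 2 of HNRNPD (chr4:83292681-83292737), exon 2 of HNRNPA2B1 (chr7:26237451-26237486), which makes the B1 form, and the extension of an HNRNPC exon (within chr14:21699117-21699231), which makes C2 in place of C1. All lie on the minus strand.
HNRNPD exon 2: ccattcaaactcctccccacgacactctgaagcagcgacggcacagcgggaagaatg
HNRNPA2B1 exon 2: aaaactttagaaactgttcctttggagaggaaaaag
HNRNPC extension: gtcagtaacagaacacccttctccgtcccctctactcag
HNRNPD exon 2 took 13.3% (12.3 to 14.4) of reads in the 813-titled library and 12.4% (11.5 to 13.4) in the NT-titled library, and HNRNPD exon 7 took 30.4% and 30.5%. HNRNPA2B1 exon 2 took 13.5% (12.3 to 14.7) and 14.2% (12.8 to 15.7), with 403 and 328 reads. The HNRNPC extension took 8.98% (8.11 to 9.90) and 7.49% (6.69 to 8.36), from 360 and 297 reads. The intervals overlapped in each of these exons.

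U2AF1 has a pair of 67-base exons that are used in place of each other and give alternative forms of the protein. They are shown with the bases that differ in capitals, the first in transcript order at chr21:44521476-44521542 and the second at chr21:44520563-44520629, both on the minus strand. Over their length 44 of 67 bases are identical (65.7%) and 23 differ.
U2AF1 first paired exon: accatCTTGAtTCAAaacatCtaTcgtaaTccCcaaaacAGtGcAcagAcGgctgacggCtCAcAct
U2AF1 second paired exon: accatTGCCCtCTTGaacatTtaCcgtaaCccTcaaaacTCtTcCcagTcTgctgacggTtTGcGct
The second exon took 1464 of the pair's reads and the first 998 in the 813-titled library, a share of 59.5% (57.5 to 61.4) for the second. In the NT-titled library the counts were 1592 and 1087, a share of 59.4% (57.5 to 61.3). For SNRPB the longer form of the last exon, which sets apart its alternative C-termini, took 51.2% (49.9 to 52.4) and 50.1% (49.0 to 51.2). The shares of all 8 exons are set side by side in the plot of reads in alternative exons.

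**Figure D4:**
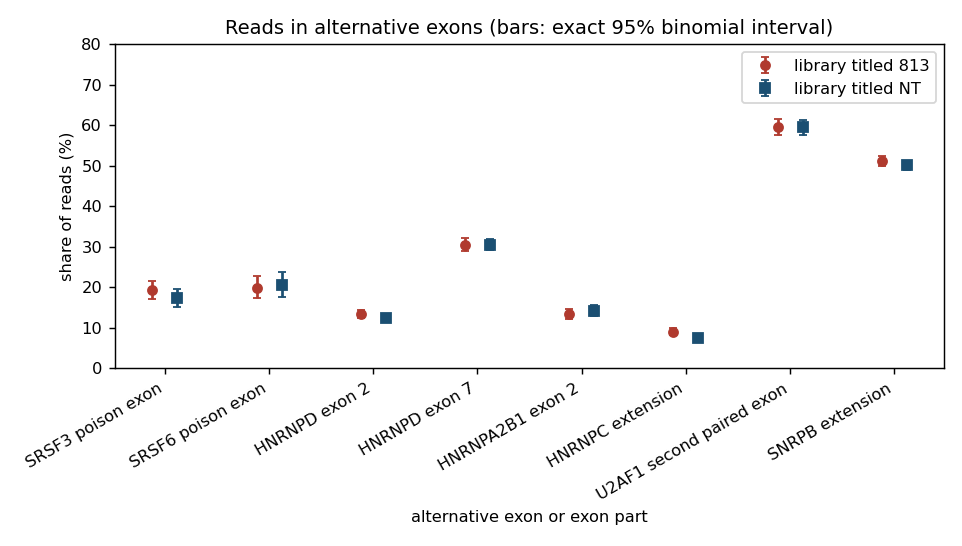
Share of reads in percent (vertical axis) in 8 alternative exons or exon parts (horizontal axis) in the 813-titled library (circles) and the NT-titled library (squares); bars are exact 95% binomial intervals for counting error. The largest gap is 2.04 percentage points, in the SRSF3 poison exon (19.3% and 17.3%), and the 2 intervals overlap for each exon.

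Several members share bases or sequence with other listed genes, and their gene counts are uncertain. In most genes the exon records held about as many reads as the gene count, with a median ratio of 1.19 over measured genes. SRSF1, with 0% of its bases under another listed gene, had ratios of 2.45 and 2.39, above the 95th percentile of 2.01. Its exon records held 15127 and 8246 reads, also more in the 813-titled library, and the source of its high ratio was not tested. HNRNPA1 had 7.27 and 7.74 exon reads per gene read, and 70.4% of its exonic bases are also listed under HNRNPA1P10. Its gene count was 1295 and 1470 pairs, while its exon records held 18831 and 22756 reads, so its gene-level 22.1 and 24.2 RPKM is an uncertain measure of its level. Both readouts lay on the same side of 0, at -0.26 (-0.37 to -0.15) for gene counts and -0.34 (-0.38 to -0.30) for exon sums. HNRNPUL2 had 4.56 and 4.72 exon reads per gene read and shares 46.5% of its bases with a readthrough gene.

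HNRNPH2 was not measured by its gene count, with 12 and 8 pairs, and 92.2% of its exonic bases are also listed under RPL36A-HNRNPH2. Its exon records held 485 and 348 reads, a log2 fold of 0.41 (0.13 to 0.70), on the same side of 0 as the 3 measured F/H genes. HNRNPA1L2, a near-identical copy of HNRNPA1, had 53 and 46 pairs against 5578 and 6960 exon reads, and its log2 fold was 0.13 by gene and -0.39 by exon sum. The sign of HNRNPA1L2 thus turned with the table used. The other 7 genes not measured were HNRNPCL1, with 0 pairs in both libraries, and 6 listed by name only as pseudogenes, antisense or readthrough genes. HNRNPKP3 had 4 and 9 pairs, HNRNPU-AS1 17 and 18, HNRNPUL2-BSCL2 5 and 0, HNRNPA3P1 1 and 0, and HNRNPA1P10 and SNRPD2P2 0 in both. For SNRPD2P2, whose exon records held 0 reads too, a count of 0 allows up to 3 pairs. HNRNPA1P10, all of whose bases are also listed under HNRNPA1, had 16804 and 20486 exon reads. HNRNPCL1, with 88.2% of its bases under another listed locus, had 736 and 710, so their gene counts of 0 set no such limit.

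Promoters of 48 of the 52 measured genes were matched in RefSeq (GRCh38.p14). The 250 bases before the first listed start of each gene were searched for short motifs on both strands. That start can lie inside the gene: the windows of SNRPE and SNRPG hold the start codon of their protein. RUNX proteins bind TGTGGT, which reads as ACCACA on the other strand. These letters stood in 2 of 48 promoters (4.17%), those of SF3A3 and SNRPF. They stood in 10.98% of 35116 promoters of the same length and in 7.18% of the 9591 promoters of measured genes. ETS factors, the family of FLI1, bind CCGGAAGT, which reads as ACTTCCGG on the other strand. These letters stood in 13 of 48 promoters (27.1%), against 3.42% of all promoters and 7.43% of those of measured genes. A match of one motif can share at most 1 base with a match of the other. The 13 were HNRNPD, SF3A1, SF3A2, SF3A3, SF3B14, SF3B2, SF3B4, SNRPA1, SNRPB, SNRPE, SRSF4, SRSF5 and U2AF2. The SNRPE match is in the window that holds a start codon. The median log2 fold of the 13 was -0.32, with 2 above 0, and that of the 35 without the letters -0.01. Over all measured genes the medians with and without the ETS letters were -0.01 and 0.01. GC content and level, which differ between these genes as given above, were not separated from the letters here.

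The promoters of SF3A3 (chr1:37990023-37990272, minus strand), SNRPB (chr20:2470790-2471039, minus strand) and SRSF1 (chr17:58007247-58007496, minus strand) are shown, the first because it holds both motifs, SNRPB as the most abundant of the 13, and SRSF1 as the gene with the largest fold and neither motif. Capitals mark the motif letters.
SF3A3 promoter: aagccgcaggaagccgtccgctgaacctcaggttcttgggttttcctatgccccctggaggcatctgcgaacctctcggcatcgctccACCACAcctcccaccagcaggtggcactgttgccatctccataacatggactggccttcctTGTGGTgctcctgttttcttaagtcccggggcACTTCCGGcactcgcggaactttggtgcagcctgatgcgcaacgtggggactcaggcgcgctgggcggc
SNRPB promoter: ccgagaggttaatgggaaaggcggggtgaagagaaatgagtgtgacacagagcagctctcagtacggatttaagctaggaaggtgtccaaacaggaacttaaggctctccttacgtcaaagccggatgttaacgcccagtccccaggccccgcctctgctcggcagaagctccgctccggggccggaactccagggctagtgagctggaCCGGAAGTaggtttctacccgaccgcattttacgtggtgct
SRSF1 promoter: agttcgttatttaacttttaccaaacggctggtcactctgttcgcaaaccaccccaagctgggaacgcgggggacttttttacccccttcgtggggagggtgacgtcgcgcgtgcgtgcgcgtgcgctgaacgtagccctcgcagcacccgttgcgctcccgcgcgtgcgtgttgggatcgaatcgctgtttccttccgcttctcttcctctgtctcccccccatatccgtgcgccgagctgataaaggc
SF3A3, with RUNX letters on both strands, had a log2 fold of 0.03. A match describes these letters in this window and says nothing of binding in these cells.

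Other genes of the splicing pathway held 12 calls. By list, 16.7% of 24 measured SR-related proteins and SR kinases and 7.69% of 52 measured tissue and other regulators were called. Of 195 further splicing genes in lists of snRNP proteins, assembly factors, helicases, SR kinases, tissue regulators and decay factors, 177 were measured. Of these 8 were higher and 4 lower in the 813-titled library (6.78% together, against 11.6% over all genes), and their median log2 fold was -0.09. The 24 measured SR-related proteins and SR kinases held 4 of the 8. DYRK1A, a kinase of SR proteins, had 479 pairs in the 813-titled library and 176 in the NT-titled library, a log2 fold of 1.37 (1.12 to 1.63). SON, a large nuclear-speckle scaffold, had 3784 and 1561 pairs and 1.202 (1.12 to 1.29). SRPK1, the cytoplasmic SR kinase that sends SR proteins to the nucleus, had 464 and 196 pairs and 1.17 (0.92 to 1.42), and THRAP3 2224 and 943 pairs and 1.16 (1.05 to 1.27). The nuclear SR kinase CLK1 had 98 and 111 pairs and -0.25, with an interval of -0.66 to 0.15, and is named here after its value was seen. On the same list CLK2 was at -0.39 (-0.54 to -0.24) and CLK3 at -0.20 (-0.29 to -0.11). SRPK2 was at 0.82 (0.56 to 1.09), while CLK4 and SRPK3 were not measured.

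The other 4 higher genes were TGS1 (1.28), which trimethylates the snRNA cap, CDC40 (1.04), a factor of the second step, SMG1 (1.08), the kinase that starts nonsense-mediated decay, and FUBP3 (1.02). None of the 8 was called with the trend on GC content and length removed, when SON had a log2 fold of 0.82 and DYRK1A one of 0.87. The 4 lower genes kept their calls. RBFOX3, a neuronal splicing regulator, had 8 and 48 pairs, for a log2 fold of -2.59 (-3.95 to -1.57). ELAVL3, a neuronal binder of AU-rich RNA, had 145 and 445 pairs and -1.69 (-1.97 to -1.42), and CELF5, of the CELF family of splicing regulators, 115 and 303 pairs and -1.47 (-1.80 to -1.16). USP39, a protein needed for the tri-snRNP, had 2176 pairs (89.0 CPM) in the 813-titled library and 4657 pairs (201 CPM) in the NT-titled library, a log2 fold of -1.17 (-1.247 to -1.0995). Its list of 22 measured U snRNP and tri-snRNP proteins had a median of -0.15, and the other 21 were not called.

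By particle, the rest of the pathway lay near the splicing factors. The 12 measured LSM proteins, several of which form the ring on U6, had 0 calls and a median log2 fold of -0.13, and the 14 measured assembly factors a median of -0.05. SMN1 and SMN2, near-identical copies, were both listed with 0 pairs in both libraries. The 29 measured helicases and second-step factors had a median of -0.0027, and the 24 exon junction and decay factors one of -0.19 with 6 above 0. The SR-related proteins and SR kinases had a median of 0.12, with 15 of 24 above 0, a value of 0.02 with the trend removed.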

How the data were processed

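Poly(A) RNA-seq libraries of A673 cells were analysed, 1 per group, grouped by their titles. The submitters' processing notes name TopHat2 2.0.6, HTSeq, CASAVA 1.9 and the build hg19. The gene annotation, any filter and the use of strand are not given there. Per the file headers, the authors deposited raw counts and RPKM, for genes in one table and for exons in another. Deposited gene counts were all even (0 odd values), while 36.4% and 35.5% of exon counts were odd, so gene counts were divided by 2 and called pairs. Of 23398 gene rows, 33 repeats were dropped. In 28 rows a date stands in place of a symbol.

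TMM factors from edgeR 4.0.16 in R 4.3.3 scaled the library sizes (factors 1.05 and 0.954, giving 24461352 and 23213627 effective pairs). No edgeR test was run, since each group has 1 library. Log2 folds used a prior of 0.5 pairs, and intervals were exact conditional binomial (Clopper-Pearson; scipy 1.17.1, numpy 2.4.6, pandas 2.3.3, Python 3.11.15). For intervals of exon log2 folds reads were divided by 2, and for those of exon shares they were not. The trend on GC content and length was fitted with mgcv 1.9.3 on 11832 genes. GC content came from the longest GENCODE transcript of each gene, with protein-coding transcripts taken first and older symbols matched to current ones. The calculation was tested on simulated counts. Exon sequences come from GENCODE release 29 transcripts matched on the lengths of neighbouring exons, with hg19 coordinates from the exon records, and promoters from RefSeq. The genes, lists and tests were chosen with earlier results of these data known. Genes named by rule were the 3 highest and 3 lowest folds in each role, the 10 highest mean RPKM values, departing exons, and up to 4 called genes per direction from each other list.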

Additional observations from a re-analysis of the deposited data

How the results depend on the processing

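No paired analysis was possible because each group has 1 library. No splicing factor was called under any of the scalings, filters, priors or corrections tried, and the 4 higher genes at 1.5-fold were the only calls. At 1.5-fold, all genes gave 2144 higher and 1207 lower in place of 996 and 427, and the other splicing lists 23 higher and 8 lower in place of 8 and 4. With the trend on GC content and length removed those lists gave 0 higher. The median log2 fold of the 52 splicing factors, -0.10, turned to 0.033 with plain totals of pairs, 0.026 with library sizes without the 20 most abundant genes, and 0.027 with the ratio of deposited RPKM values. The U2AF median was 0.0050 with plain totals. These 3 scalings moved the median of all genes by 0.14, 0.13 and 0.13, put 28, 27 and 27 splicing factors above 0 in place of 19, and raised the higher share of all calls from 70.0% to 81.5%, 80.9% and 81.1%. Exons that depart from their gene numbered 5 in place of 1 with exon reads as deposited, in SF3B1, SRSF10 and SRSF11 (0.932% of records over all genes in place of 0.423%). FUBP3 lost its call with median-of-ratios size factors and CDC40 with a prior of 5 pairs.

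Depth limits SRSF12, HNRNPA1L2 and SNRPB2, whose intervals include 0. With 1 library per group, the spread between cultures is not known for any gene, and an interval for counting error is narrower than one that would include it.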
